A study of Rattus norvegicus with 6 samples.

Results

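The Usher scaffold and ankle link genes, 6 in number, were followed in the rat vestibular sensory epithelium. Their proteins build parts of the hair cell bundle that fail in Usher syndrome. They were taken by symbol from a table of 32883 genes, and all 6 were found once and passed the filter on low counts: Ush1c, Ush1g, Whrn, Adgrv1, Pdzd7 and Clrn1. RNA-seq counts came from 6 male Long-Evans rats, an outbred strain, each library being 1 adult rat. The 3 rats of the IDPN-4wk group received 3,3'-iminodipropionitrile (IDPN), a nitrile toxic to hair cells (HCs), at 20 mM in their water over 4 weeks, and the 3 control rats received water without it. Both utricles and all cristae of a rat were pooled, so that HCs, supporting cells and other cells of the dissected tissue were measured together. In such bulk samples, fewer cells of a type and less RNA per cell cannot be told apart.

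The mechanosensitive bundle of an HC is a staircase of actin-filled stereocilia tied together by extracellular links. Usher syndrome, an inherited loss of hearing and vision that can include loss of balance, follows from mutations in the proteins of these links and in the scaffolds and motors that hold them. Harmonin (Ush1c) and Sans (Ush1g) form, with the motor myosin VIIa (Myo7a), the anchor of the tip link, whose strands are cadherin 23 (Cdh23) and protocadherin 15 (Pcdh15). At the base of the stereocilia, ankle links that contain the adhesion receptor Adgrv1 are held by the PDZ domain scaffolds whirlin (Whrn) and Pdzd7. Clarin 1 (Clrn1) is a small membrane protein of the bundle and the synapse, mutated in a further form of the syndrome.

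After 4 weeks of IDPN, Adgrv1 fell to 40.2% of control, while no other member changed by the criterion used. The scaffolds Whrn and Pdzd7, which hold Adgrv1 in place, averaged 95.2% and 98.9% of control, and Clrn1 averaged 98.8%. The tip link scaffold Ush1c averaged 88.2% of control, with groups that did not overlap but a difference that did not pass the test, and Ush1g, at the lowest counts, averaged 83.7%. Of 4 other genes listed here as Usher genes, Pcdh15, Cdh23 and Myo7a were called lower and Cib2 did not pass. The Myo7a call depended on the scaling and on control replicate 2. Whether these genes differ as a group from the members was not tested. Adgrv1, Cdh23 and Pcdh15 span over 300 kb of the genome, and the other members under 100 kb. Of the 422 tested genes over 300 kb, 51.4% were called lower, and of all tested genes 6.62%. The part of gene length in these calls was not tested.

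Libraries held from 13358678 to 18561991 counts, and replicates differed by more than counting noise, with a chi-square per degree of freedom from 7.94 to 16.1 within groups. Levels are given as CPM, counts relative to the library size after scaling with TMM, which sets that size by the bulk of the genes, and changes as the log2-Fold change of IDPN-4wk against control. A gene was called changed at an edgeR adjusted p (Padj) under 0.05 together with a fold change over 1.5. Over all tested genes the median change was 0.02 with TMM and 0.13 without it (library size alone), so a change near 0 has no scale-free sign. None of 10 HC markers was at 0 in any library, and the markers moved with the treatment. Their summed level was between 2146 and 2272 CPM in control and between 1143 and 1460 CPM in IDPN-4wk libraries (58.1% of control), and 4 of 10 were called lower. Of 8 supporting cell markers 3 were called lower (Otog, Otogl and Gjb6) and 0 higher, Sox9 and Hes1 having log2-Fold changes of 0.24 and 0.36 (edgeR Padj 0.0540 and 0.0783). Their sums, from 9526 to 10517 CPM in control and from 5198 to 6366 CPM in IDPN-4wk libraries, were largely Otog, which went from 6262 to 3199 CPM in the mean. Summed markers of other cells stood at 76.3% of control for Schwann cells (1 of 5 lower), 65.6% for neurons (1 of 5 lower, 1 higher), 101% for macrophages (1 of 5 higher), 110% for stroma (1 of 5 lower, 1 higher), 88.0% for endothelium (1 of 4 lower) and 64.1% for dark cells and melanocytes (2 of 5 lower). Some of these sums join opposite moves. Macrophage markers stood at 71.9% (Csf1r), 96.5% (Ptprc), 123% (C1qa), 155% (Cd68) and 164% (C1qb) of control. Stroma markers ran from 37.8% (Lum) to 168% (Col1a1), and dark cell and melanocyte markers from 27.2% (Kcnq1) to 125% (Tyrp1). The part of all these shifts in the members' values was not tested.

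**Figure D1:**
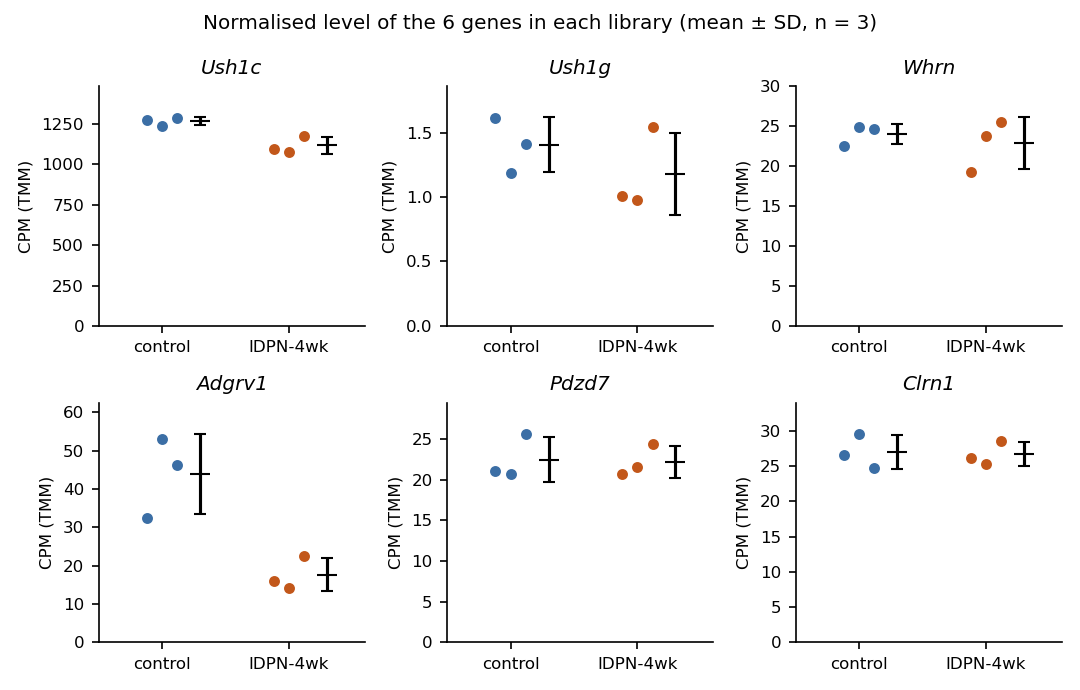
Normalised level (CPM after TMM, linear axes from 0) of the 6 genes in each of the 3 control (blue) and 3 IDPN-4wk (orange) libraries, with the mean and SD beside the points. Adgrv1 is between 32.5 and 53.0 CPM in control and between 14.3 and 22.7 CPM in IDPN-4wk libraries, Ush1c separates by a narrow gap, and the groups overlap in the other 4 genes.

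Of the 6 members, 1 was called lower and 0 higher by edgeR, where 6.62% of the 14352 tested genes were called lower, 3.09% higher and 9.71% in either direction. The groups did not overlap in 2 members, both lower in IDPN-4wk, and in 37.8% of all tested genes (19.3% lower, 18.5% higher). The median of the 6 members' log2-Fold changes was -0.12. Levels were not compared between genes, since no transcript lengths were used.

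Adgrv1 (ENSRNOG00000016306) encodes the very large receptor whose extracellular chain spans the ankle link. Its level was 32.5, 53.0 and 46.4 CPM in the control libraries and 16.1, 14.3 and 22.7 CPM in the IDPN-4wk libraries. Every treated library was below every control library, and both groups were wide, with a coefficient of variation (CV) of 23.8% in control and 24.9% in IDPN-4wk where counting alone gives 3.96% and 5.93%. The mean went from 43.9 ± 10.5 to 17.7 ± 4.40 CPM (SD, n = 3 each), a log2-Fold change of -1.31 with an SE of 0.20 (edgeR Padj 0.00126). The 95% confidence interval was from 0.295 to 0.547 of the control level. The call was made under every scaling, filter and tool tried, and with any library left out the log2-Fold change was from -1.55 to -1.16, with edgeR Padj at most 0.0100.

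Whrn (ENSRNOG00000001700) encodes whirlin, which serves both the ankle link and the tip of the stereocilium, where it is carried by myosin XVa. It measured 22.6, 24.9 and 24.6 CPM in control and 19.3, 23.8 and 25.6 CPM in IDPN-4wk libraries. The treated group held both the lowest and the highest of the 6 values. With 24.0 ± 1.25 against 22.9 ± 3.25 CPM (SD, n = 3 each), the log2-Fold change was -0.07 (SE 0.13, edgeR Padj 0.748), and its interval ran from 0.784 to 1.16 of control.

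Pdzd7 (ENSRNOG00000032946) encodes the PDZ scaffold that joins whirlin and Adgrv1 at the ankle link. The control libraries had 21.1, 20.7 and 25.6 CPM and the IDPN-4wk libraries 20.6, 21.6 and 24.4 CPM, so the groups covered the same range. The means were 22.5 ± 2.75 and 22.2 ± 1.96 CPM (SD, n = 3 each), which is -0.02 on the log2 scale (SE 0.13, edgeR Padj 0.947) with an interval from 0.814 to 1.20 of control. In the GRCr8 annotation Pdzd7 overlaps Lzts2, whose log2-Fold change was 0.28 (edgeR Padj 0.0652). The libraries do not keep the strand. Counts were made on another genome build, Rnor6.0, and whether the pair had reads in common was not tested.

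Clrn1 (ENSRNOG00000042477) was measured at 26.6, 29.6 and 24.8 CPM in control and at 26.1, 25.3 and 28.6 CPM in IDPN-4wk libraries. All 3 treated values lay inside the control range. The means of 27.0 ± 2.42 and 26.7 ± 1.72 CPM (SD, n = 3 each) differed by -0.02 on the log2 scale (SE 0.11, edgeR Padj 0.930), with an interval from 0.833 to 1.17 of control. A fall of the size seen in Adgrv1 lay outside the intervals of Clrn1, Pdzd7 and Whrn. The sign of the difference in Whrn, Pdzd7 and Clrn1 turned with library size alone, where the log2-Fold changes were 0.04, 0.09 and 0.09.

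Ush1c (ENSRNOG00000021149) encodes harmonin, the PDZ scaffold under the upper end of the tip link. Its level was 1276, 1238 and 1286 CPM in control and 1095, 1079 and 1179 CPM in IDPN-4wk libraries, with at least 15230 counts in each. The groups did not overlap after TMM, and replicates were close, with a CV of 2.00% in control and 4.80% in IDPN-4wk. The difference between 1267 ± 25.3 and 1117 ± 53.6 CPM (SD, n = 3 each) was small, a log2-Fold change of -0.18 with an SE of 0.07, and it did not pass the adjusted threshold (edgeR Padj 0.0918). The adjusted p fell under 0.05 with DESeq2 (0.0453) and in edgeR without IDPN-4wk replicate 3 (0.0461), while with library size alone the log2-Fold change was -0.07 (edgeR Padj 0.456) and the groups overlapped. No alternative brought the fold change near the threshold of 1.5. The 95% interval was from 0.794 to 0.980 of control.

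Ush1g (ENSRNOG00000028456) encodes Sans, which links harmonin and myosin VIIa at the same site. It was at the edge of what the depth could resolve, with 25, 17 and 20 counts in control and 14, 19 and 24 counts in IDPN-4wk libraries. These counts correspond to 1.61, 1.19 and 1.42 CPM and to 1.01, 0.980 and 1.55 CPM. IDPN-4wk replicate 3 lay inside the control range and the other treated libraries below it. The log2-Fold change was -0.26 (SE 0.38, edgeR Padj 0.672) and the interval, from 0.469 to 1.49 of control, includes a fall as large as some of those Adgrv1 allows, so no difference was detectable at this depth. The counting error alone gives a CV of 22.0% in control and 22.9% in IDPN-4wk, where 15.2% and 27.1% were observed.

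**Figure D2:**
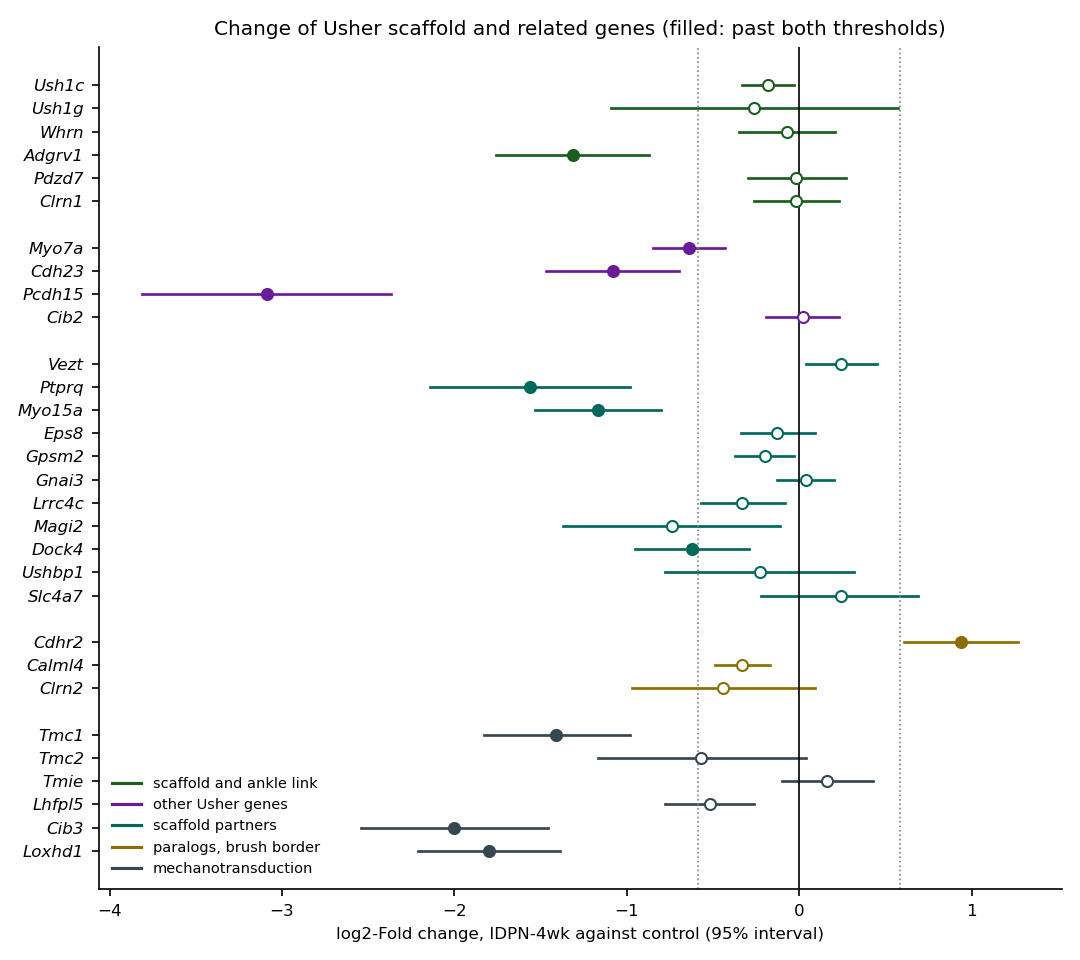
The log2-Fold change of IDPN-4wk against control from edgeR, with 95% confidence intervals, for the 6 members, the 4 other Usher genes and further tested genes. These are the genes of the partner and bundle link, paralog and transduction lists. The interval of Adgrv1 (-1.76 to -0.87) lies far from 0, those of Whrn, Pdzd7 and Clrn1 straddle 0, and Pcdh15 has the lowest value, -3.09.

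Unequal change among the members was read from ratios within each library, which do not depend on scaling apart from the small constant added before taking logs. The Ush1c to Adgrv1 ratio was 39.1, 23.3 and 27.7 in control and 67.5, 74.8 and 51.7 in IDPN-4wk libraries. Adgrv1 relative to Clrn1 was 0.29, 0.84 and 0.90 on the log2 scale in control and -0.69, -0.82 and -0.33 in IDPN-4wk libraries, a difference of -1.29. Groups did not overlap in 5 of the 15 pairs of members, the 5 that contain Adgrv1, which restate the change of that gene. Of all tested genes, 86.9% were likewise apart in their ratio to Adgrv1. In the 10 pairs without Adgrv1 they overlapped, and Pdzd7 relative to Clrn1 differed by 0.00. The two-sided exact permutation p was 0.1 for each of the 5 pairs, the smallest that 3 against 3 rats can give, and 0.300 after Benjamini-Hochberg adjustment over the 15 pairs.

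The members were also set against the mean log2 CPM of the 10 HC markers in the same library, which was 6.49 ± 0.09 in control and 5.77 ± 0.17 in IDPN-4wk (SD, n = 3 each). Clrn1 relative to this mean was -1.68, -1.69 and -1.83 in control and -0.91, -1.08 and -1.11 in IDPN-4wk libraries. Adgrv1 went the other way, from -1.39, -0.86 and -0.93 in control to -1.60, -1.90 and -1.45 in IDPN-4wk libraries. The difference was 0.70 for Clrn1 and for Pdzd7, 0.64 for Whrn, 0.53 for Ush1c, 0.47 for Ush1g and -0.59 for Adgrv1. The groups did not overlap in any of the 6, with a two-sided exact permutation p of 0.1 each, also after adjustment over the 6, which is the smallest possible. The marker mean itself went down, and 80.1% of the tested genes outside the markers did not overlap either, with 77.4% higher and 2.71% lower in IDPN-4wk, so the count of members says little of them in particular. With a prior count of 0.5 the number of members against the mean was 5. Against the median of the markers in place of their mean, where 45.1% of genes did not overlap, 2 members did not, Clrn1 (0.28) and Adgrv1 (-1.01), and the difference was 0.11 for Ush1c, 0.04 for Ush1g, 0.21 for Whrn and 0.28 for Pdzd7. The markers themselves ranged from Lhx3, a transcription factor of vestibular HCs, with a log2-Fold change of -1.60, to Gfi1, another HC transcription factor, with -0.07.

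**Figure D3:**
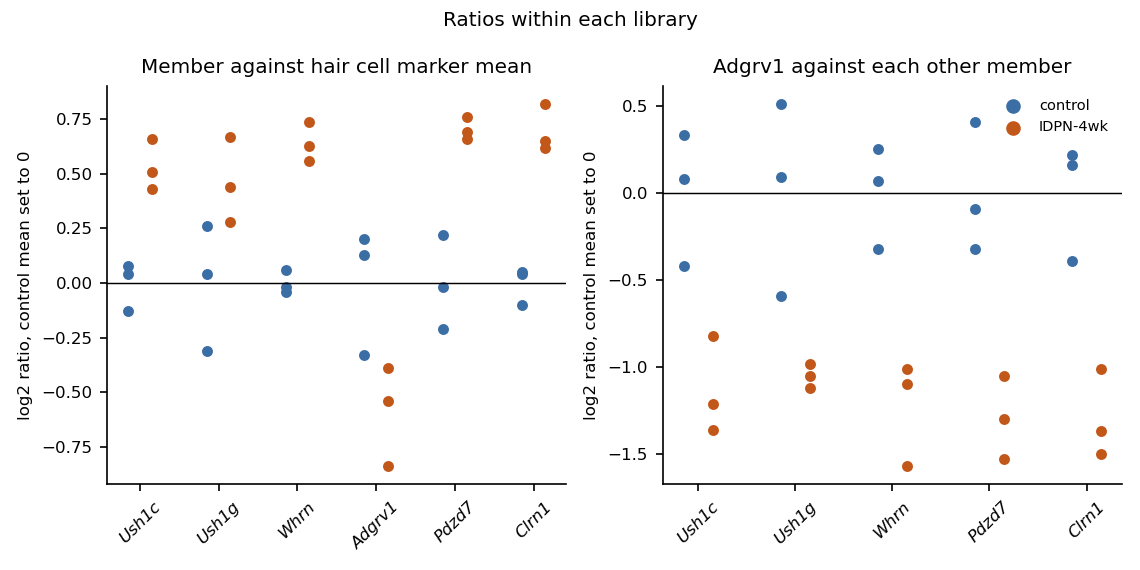
Left, log2 CPM of each member minus the mean log2 CPM of 10 HC markers in the same library, for 3 control (blue) and 3 IDPN-4wk (orange) rats. Right, the log2 ratio of Adgrv1 to each other member within a library. In both panels the control mean is set to 0. Adgrv1 moves down by 0.59 against the markers and the other 5 members move up, by 0.47 to 0.70, with no overlap in any of the 6, as in 80.1% of other genes, and in 5 of the 6 with a prior count of 0.5. Against the median of the markers, 2 of the 6 do not overlap.

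The other Usher genes were given by a list of 4, of which 3 were called lower by edgeR. Pcdh15, the lower strand of the tip link, had 9.43, 7.27 and 5.80 CPM in control and 0.575, 0.877 and 1.16 CPM in IDPN-4wk libraries (log2-Fold change -3.09, SE 0.33, edgeR Padj 0.000136). Cdh23, the upper strand, had 22.4, 17.6 and 20.7 CPM in control and 7.91, 8.82 and 11.9 CPM in IDPN-4wk libraries (-1.08, SE 0.17, edgeR Padj 0.00167). In both strands every treated library was under every control library, at means of 11.6% of control for Pcdh15 and 47.1% for Cdh23.

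Myo7a, the motor that binds Ush1c and Ush1g, went from 252 ± 17.7 to 162 ± 19.9 CPM (SD, n = 3 each), a log2-Fold change of -0.64 (SE 0.10) at an edgeR Padj of 0.00109. This fold change dropped under 1.5 on library size alone (-0.53) or when control replicate 2 was left out (-0.58). In both these fits 2 of the 4 were called, Pcdh15 and Cdh23, and with glmTreat, which tests against the fold threshold itself, only Pcdh15 was, Cdh23 having a Padj of 0.0532. Cib2, a calcium-binding protein of the transduction complex, was at 44.0 ± 3.56 and 44.6 ± 2.83 CPM (SD, n = 3 each; 0.02, SE 0.09, edgeR Padj 0.921).

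Binding partners of the scaffolds and genes associated with the bundle links were given by a joint list of 13 genes, of which Mpp1 and Cask were not analysed here. Of the 11 tested, 3 were called lower, 0 higher and 8 in neither direction, with a median log2-Fold change of -0.23. Ptprq, the receptor phosphatase of the shaft connectors, had 459, 533 and 485 CPM in control and 126, 110 and 266 CPM in IDPN-4wk libraries (-1.56, SE 0.26, edgeR Padj 0.00233). Myo15a, the motor that carries whirlin to the stereocilia tips, went from 108 ± 5.60 to 48.2 ± 14.7 CPM (SD, n = 3 each), by -1.17 on the log2 scale (SE 0.16, edgeR Padj 0.000788), while Whrn did not pass. Dock4, an exchange factor that binds harmonin, stood at 64.9% of control (-0.62, SE 0.15, edgeR Padj 0.0150). Its call was lost on library size alone (-0.52) and when control replicate 1 (-0.55) or IDPN-4wk replicate 3 (-0.58) was left out. It was also lost with glmTreat, which called 2 genes of this list, Ptprq and Myo15a. The remaining partners of the whirlin complex at the tip gave log2-Fold changes of -0.13 for Eps8, an actin regulator, -0.20 for Gpsm2, a polarity protein, and 0.04 for Gnai3, a G protein subunit, with edgeR Padj of 0.407, 0.103 and 0.761. The other genes of the list not called were Vezt (0.24), Lrrc4c (-0.33), Magi2 (-0.74), Ushbp1 (-0.23) and Slc4a7 (0.24), with edgeR Padj from 0.0651 to 0.567.

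Genes of the mechanotransduction complex, which the tip link pulls on, were given by a list of 7, of which Tomt was not analysed here. Of the 6 tested, 3 were called lower by edgeR: the channel subunit Tmc1 (log2-Fold change -1.41, Padj 0.000677), the calcium-binding Cib3 (25.1% of control, Padj 0.000332) and the stereocilia membrane protein Loxhd1 (-1.80, Padj 0.000119). Tmc2 (-0.57), Tmie (0.16) and Lhfpl5 (-0.52) were not called, the last passing the adjusted p (0.0117 by edgeR) but not the fold change. The call count rose to 5 without IDPN-4wk replicate 3, where 10.9% of all tested genes were called, against 9.71% with all libraries.

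Paralogs of the members and genes of the intermicrovillar links of the intestinal brush border were given by a list of 7, of which 3 were tested. Of these only Cdhr2, a protocadherin that binds harmonin in the brush border, was called higher, with 10.0, 11.1 and 9.98 CPM in control and 22.7, 16.7 and 20.5 CPM in IDPN-4wk libraries (log2-Fold change 0.94, SE 0.15, edgeR Padj 0.00154). The treated libraries were all above the controls, and the call was made whichever library was left out but was lost with glmTreat (Padj 0.105). Calml4, a calmodulin-like light chain, passed the adjusted p but not the fold change (-0.33, edgeR Padj 0.0109), and Clrn2, the sister gene of Clrn1, did not pass (-0.44, edgeR Padj 0.236). Clrn3, another relative of Clrn1, had 0 counts in all libraries, which allows up to 0.216 CPM in the shallowest. Myo7b, Cdhr5 and Anks4b, the brush border counterparts of the Usher motor, cadherin and Sans, reached at most 5, 3 and 17 counts and were not tested.

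Adgrv1 also stood apart in the length of the gene. By the RefSeq annotation of GRCr8 it spans 580 kb of the genome, against 6.83 kb for Ush1g, 19.5 kb for Pdzd7, 46.9 kb for Clrn1, 48.4 kb for Ush1c and 89.6 kb for Whrn. Across the 13075 tested genes that could be matched (91.1%), the median log2-Fold change was 0.07 for 3071 genes under 10 kb, 0.07 for 4192 genes of 10 to 30 kb, 0.02 for 3828 genes of 30 to 100 kb, -0.17 for 1562 genes of 100 to 300 kb and -0.81 for 422 genes over 300 kb. Of the 422 genes over 300 kb, 217 (51.4%) were called lower and 0 higher. The log2-Fold change of Adgrv1 or a lower one was found in 110 of these 422 genes (26.1%) and in 2.52% of all genes. Cdh23 and Pcdh15, at 383 and 1499 kb, were in the same class, as were the partners Dock4 (390 kb, called lower), Lrrc4c and Magi2 (1379 and 1484 kb, neither called), whereas Ptprq spans 182 kb, Myo7a 70.3 kb and no HC marker is over 300 kb. With library size alone the median over 300 kb was -0.70 and that under 10 kb was 0.18. Length was looked at after the values had been seen, and its part in the fall of Adgrv1 was not tested.

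**Figure D4:**
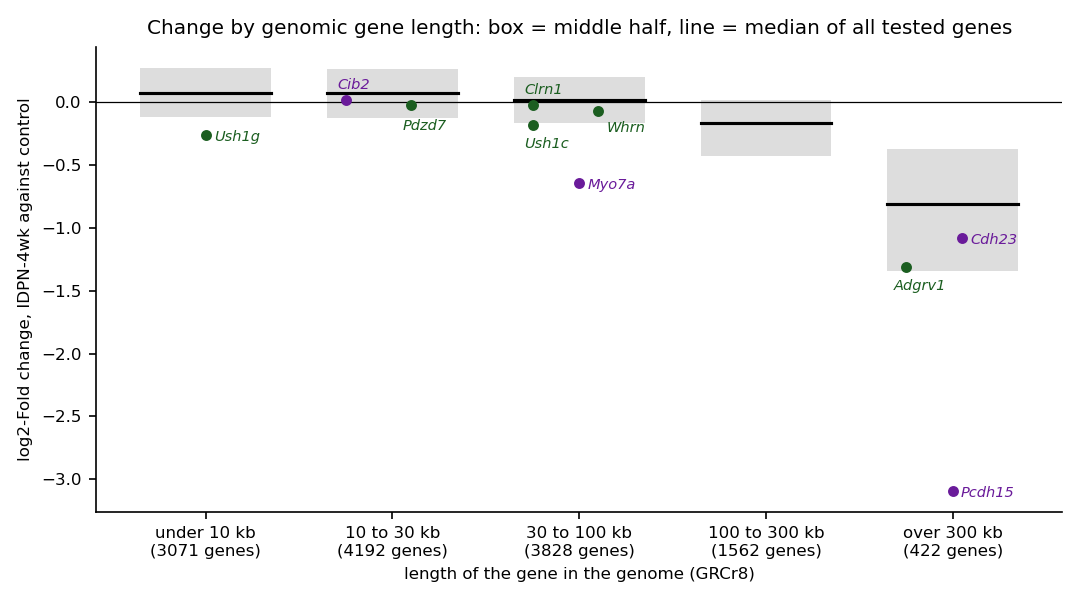
Log2-Fold change of the members (green) and the other Usher genes (purple) over the length of the gene in the genome (GRCr8, 5 classes), with the median (black line) and the middle 50% (grey box) of all tested genes in each class. Adgrv1 lies at -1.31 in the class over 300 kb, whose median is -0.81 with quartiles at -1.34 and -0.37, and the other 5 members lie between -0.26 and -0.02 in classes with medians from 0.02 to 0.07.

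The neighbours of the members in the genome were looked at after the values had been seen. Adgrv1 lies between Arrdc3 and Lysmd3, whose log2-Fold changes were -0.06 and 0.22 (edgeR Padj 0.814 and 0.218), and neither was called. Whrn lies between Akna (0.32, edgeR Padj 0.0734) and Atp6v1g1 (0.10, edgeR Padj 0.447). Ush1c lies between Abcc8 (-0.77, edgeR Padj 0.0231) and Otog, both called lower. It is read away from Otog, which encodes otogelin, a protein of the extracellular membranes over the epithelium made by supporting cells. Otog went from 6262 ± 363 to 3199 ± 561 CPM (SD, n = 3 each), at an edgeR Padj of 0.000247 and a log2-Fold change of -0.97 (SE 0.11). The Ush1c to Otog ratio was 0.213, 0.186 and 0.210 in control and 0.361, 0.394 and 0.308 in IDPN-4wk libraries. The treated libraries were all higher, which restates the larger change of Otog (-0.97) beside that of Ush1c (-0.18). Of tested genes, 86.7% were apart in their ratio to Otog.

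The 250 bases before each start of this head-to-head pair are shown because Otog was called lower and Ush1c was not. The sequences are RefSeq windows of GRCr8, Ush1c on the minus strand at chr1:105880083-105880332 and Otog on the plus strand at chr1:105882497-105882746, written 5′ to 3′ with E-boxes (CANNTG, the site of basic helix-loop-helix factors such as the HC factor Atoh1) in capitals.
Ush1c: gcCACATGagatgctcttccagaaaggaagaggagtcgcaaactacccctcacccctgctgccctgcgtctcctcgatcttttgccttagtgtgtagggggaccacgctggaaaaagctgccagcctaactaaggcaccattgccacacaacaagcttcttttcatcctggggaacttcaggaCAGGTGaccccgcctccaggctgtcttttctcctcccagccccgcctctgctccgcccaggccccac
Otog: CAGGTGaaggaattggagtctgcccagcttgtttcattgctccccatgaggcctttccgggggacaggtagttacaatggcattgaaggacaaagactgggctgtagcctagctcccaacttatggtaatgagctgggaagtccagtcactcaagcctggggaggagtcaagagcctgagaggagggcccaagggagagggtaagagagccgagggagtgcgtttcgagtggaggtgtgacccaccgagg
The Ush1c window holds 2 E-boxes and 58.4% G and C, and the Otog window 1 E-box and 56.4%. An E-box is present in 65.5% of the 33469 windows of the same length, so both are like the majority. Of the members, 5 were in the table, Ush1g being without an entry, and the windows of Whrn, Adgrv1 and Pdzd7 lay inside the gene and were not used. The palindrome TAATTA, the core AAATCA and the RFX core GTTNCC, searched on both strands, were present in 4.86%, 12.7% and 39.9% of all windows. The RFX core occurred in the window of Ush1c and in neither that of Otog nor that of Clrn1, and the other motifs in none of these windows.

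The genes closest in pattern to each member were those with the smallest root mean square difference, over the 6 libraries, of the log2 CPM from the control mean. Genes so chosen share the member's change by construction, and their calls are no separate result. For Adgrv1 they were Znf660, Trim50 and Slco3a1, at 0.06, 0.11 and 0.11, with log2-Fold changes of -1.29, -1.36 and -1.40 (edgeR Padj 0.0197, 0.00659 and 0.00198). Of these, Znf660 lost its call in 4 of 6 fits without a library, and Znf660 and Trim50 lost theirs with glmTreat of edgeR (Padj 0.191 and 0.0709). For Ush1c they were Ogt, Fkbp10 and Pigh (0.02, 0.02 and 0.03), for Ush1g Bves, Myrip and Adck1 (0.06, 0.07 and 0.08), and for Whrn Arsk, Ubn2 and Gcn1l1 (0.04 each). Pdzd7 was closest to Plppr3, Plxna1 and Ccdc28a (0.02 each) and Clrn1 to Htt, Tmem129 and Tmem101 (0.02, 0.03 and 0.03). These lists were loose, since 7 to 10 of the 18 genes were named again when a library was left out.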

How the data were processed

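According to the study's methods, the authors made SMART-seq2 libraries from total RNA of each rat. This kind of protocol does not mark strand. The submitters' processing notes name STAR 2.5.3a and RSEM 1.3.0, and the genome build was Rnor6.0. The deposited values are expected counts per gene, whole numbers as deposited. RSEM shares reads that match several genes, and reads had no molecular identifiers, so precision from depth covers counting error only. Groups came from the treatment label, whose batch label is the same in all 6 libraries, each from its own animal. Replicates were numbered in accession order, which pairs nothing. Columns of no sample numbered 0.

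Of 32883 genes, 14352 were left by filterByExpr at a minimum count of 10 and a minimum total of 15. They were scaled with TMM and tested by quasi-likelihood in edgeR 4.0.16 (R 4.3.3), with Benjamini-Hochberg adjustment over all tested genes. CPM were taken after TMM, and log2 CPM used a prior count of 2. Ratios within a library were compared with two-sided exact permutation tests. A count of 0 was taken to allow 3 counts. Alternatives were other scalings and filters, DESeq2 1.42.0, limma-voom (limma 3.58.1), glmTreat, other prior counts and leaving out each library.

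The members and gene lists were chosen with earlier results of these data known, and 1 listed gene was left out of all lists and counts. Named genes were the members, the other 4 Usher genes, the genes past both thresholds or at 0 counts in the partner, brush border and transduction lists, and the 3 genes closest to each member. HC and supporting cell markers, the partner, transduction and paralog genes not called, untested brush border genes and neighbours were named in addition, after their values were seen. GRCr8 tables of RefSeq gave gene lengths, neighbours and promoter windows, but no coordinates of the counts. The sample titles carry animal codes whose prefix differs between groups, and what it marks is not stated. If it marks a litter or cage, that and the treatment cannot be told apart.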

Additional observations from a re-analysis of the deposited data

How the results depend on the processing

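Adgrv1 was the 1 member called under every alternative. No paired analysis was possible because the labels give no replicate numbers. Small differences changed sign with scaling: with library size alone the log2-Fold change was 0.04 for Whrn, 0.09 for Pdzd7, 0.09 for Clrn1, 0.03 for Arsk, 0.02 for Gcn1l1, 0.08 for Plppr3, 0.08 for Ccdc28a, 0.07 for Htt and 0.10 for Tmem129. With upper quartile scaling it was 0.02 for Pdzd7, 0.01 for Clrn1, 0.01 for Plppr3, 0.00 for Ccdc28a and 0.02 for Tmem129. With the size factors of DESeq2, in edgeR or in DESeq2 itself, it was -0.00 for Plxna1 and -0.01 for Tmem101, and with no filter -0.00 for Tmem101. Leaving out 1 library gave ranges from -0.17 to 0.03 for Whrn, -0.10 to 0.09 for Pdzd7, -0.08 to 0.05 for Clrn1, -0.05 to 0.07 for Cib2, -0.13 to 0.02 for Arsk, -0.10 to 0.08 for Plppr3, -0.08 to 0.11 for Plxna1, -0.10 to 0.07 for Ccdc28a, -0.10 to 0.04 for Htt, -0.09 to 0.04 for Tmem129 and -0.05 to 0.05 for Tmem101. The number of other Usher genes called was 1 with glmTreat and 2 to 3 without a library. Paralogs and brush border genes called numbered 0 with glmTreat and 2 by adjusted p alone, transduction genes 3 to 5 without a library, and HC markers 7 by adjusted p alone. The share of all tested genes called moved too, from 9.71% in the main fit to 3.16% with glmTreat and 19.4% by adjusted p alone. Without a library it was between 7.47% and 10.9%. Members apart from the HC markers numbered 2 of 6 against the median of the markers, and 5 to 8 of 15 pairs of members did not overlap without a library, the 8 being without IDPN-4wk replicate 3. Where no reason follows from the alternative itself, the cause was not tested. With 3 rats a group, exact permutation tests could not go below 0.1, and depth limited Ush1g most.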

Other observations

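IDPN-4wk replicate 3 was the highest of the treated libraries in 11 of the 14 genes called lower among the members, their lists and the HC markers, Adgrv1 among them, against 2 for replicate 1 and 1 for replicate 2. Over all 950 genes called lower it was the highest in 603 (63.5%), against 18.4% and 18.1% for the other treated libraries.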
